A study of Homo sapiens with 6 samples.

Results

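Intergenic long noncoding RNAs are transcripts without a protein-coding reading frame whose genes lie between protein-coding genes, and most carry a LINC number as a symbol. Here they were 339 of the 14884 genes that the probe annotation names. They were selected on 2 values: a symbol of LINC with its number, or the symbol MALAT1 or MEG3, and a mean log2 signal of at least 5 over the 6 arrays. Of 460 such genes, 339 passed the signal limit and 121 did not, and 337 of the 339 had LINC numbers. Where a gene had several probe sets, the brightest one stood for it. NEAT1 and H19, which belonged to the rule, lacked a probe set with a name of its own and were not analysed here, and neither was LincIN, the targeted RNA itself, so the knockdown could not be checked on these arrays. The members were chosen by their mean signal over all arrays. Near the limit this value depends on the groups: 20 members had a group mean under 5, among them 2 that passed the tests below, LINC00261 and LINC01088, which were over the limit through the group where each was high.

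The cells were MDA-MB-231-Luc-D3H1, which express luciferase and derive from the triple-negative breast cancer line MDA-MB-231. They had been made to carry stably the empty GFP vector, LincIN shRNA1 or LincIN shRNA2, the hairpins in a GFP vector as well, and total RNA of 2 independent experiments was hybridised to Affymetrix Human Gene 2.0 ST arrays, 2 per group. The vector lines carried no hairpin, so an effect of any hairpin and an effect of losing LincIN cannot be told apart. No label says that more than 1 stable line was made per construct, so p-values measure the spread between these arrays, which may lie within 1 line. The array medians lay between 6.12 and 6.30 on the log2 scale. Of the marker lists, the 4 measured mesenchymal genes were bright (mean log2 signals of 11.0 to 12.9). The 4 measured epithelial ones ranged from KRT8 (7.41), near the median of 7.11 over all named probe sets, to KRT18 (11.4). CDH1, of the same list, had no named probe set. The 2 fibroblast and 2 hematopoietic markers measured were dim (3.69 to 5.53 and 5.29 to 6.003). Of the hormone receptor and HER2 list, 3 were measured, ESR1, PGR and GATA3 (4.82 to 8.37). No gene of these lists passed the test with either shRNA. Of 3 measured endothelial markers, PECAM1 and VWF did not pass, and KDR fell with both shRNAs (log2 fold changes of -1.52 and -1.54, adjusted p of 0.0125 and 0.0123), and its part in the results was not tested. Either call of KDR ended without vector replicate 1 (adjusted p of 0.0743 and 0.0624), or without either array of the shRNA itself. Here and throughout, the sign is shRNA minus vector on the deposited values. In the study's own gene list for these arrays, genes lower here, such as LINC00261, have fold changes above unity. Which group was divided by which in that list was not established here, so the directions need not conflict. Less RNA per cell and fewer cells with an RNA cannot be told apart in such bulk samples.

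Long noncoding RNAs act in several ways. Some stay at their own locus and affect neighbouring genes, some scaffold proteins in the nucleus, and others bind proteins or microRNAs in the cytoplasm. Many are made in few cell types and at low levels, and for most numbered LINC genes no function has been described.

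Most members were dim. Their mean log2 signal ranged from 5.01 to 12.34 with a median of 5.91, against a median of 7.11 over the 16098 named probe sets. Of the members, 275 (81.1%) were under 7, compared with 48.0% of all named probe sets. The arrays carry no detection call, so a signal near the limit does not show that an RNA was made. Just inside the limit were LINC00608 (5.01) and LINC00222 (5.02), and just outside it were LINC01630 (4.98) and LINC01277 (4.97). All 339 were listed as lncRNA genes in the RefSeq gene table, and they lay on 24 chromosomes, most on chromosomes 1 (40 members), 2 (33), 12 (21) and 6 (20).

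The brightest members included the best known of them. LINC00987 had the highest mean log2 signal (12.34), with 11.93 and 12.45 in the vector arrays, 11.88 and 12.72 with shRNA1 and 12.57 and 12.49 with shRNA2. The vector and shRNA1 arrays overlapped, and both shRNA2 arrays were just above the vector arrays. Its differences from vector, 0.11 and 0.34, did not pass the test (adjusted p of 0.933 and 0.606, limma). The other probe set of LINC00987 was far dimmer (6.53), so its rank as the brightest rests on 1 of 2 probe sets. MALAT1, a nuclear RNA of the speckles where splicing factors gather, followed with 11.68 and 12.57 in vector, 11.95 and 12.54 with shRNA1 and 11.87 and 11.76 with shRNA2. The arrays of each shRNA overlapped with those of vector, while both shRNA2 arrays were below both shRNA1 arrays (log2 fold changes of 0.12 and -0.31, adjusted p of 0.934 and 0.671). Its other 2 probe sets differed far more between arrays of 1 group than between groups: the brighter of them read 9.43 and 12.64 in the vector arrays, 9.86 and 12.14 with shRNA1, and 11.10 and 11.58 with shRNA2. In both of these probe sets, replicate 1 was lower than replicate 2 in every group. LINC01347 (11.68), LINC01000 (11.35) and LINC01061 (11.17) complete the 5 brightest and are described further on. MEG3, an imprinted RNA expressed from the maternal chromosome, was near the limit (5.31) with 5.32 and 5.33 in vector, 5.69 and 5.31 with shRNA1 and 5.05 and 5.16 with shRNA2. Neither difference for MEG3, 0.17 and -0.22, passed the test (adjusted p of 0.801 and 0.569), and its other probe set was dimmer still (2.75).

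Each shRNA was then compared with vector, to ask which of these RNAs differed in cells that carried a hairpin against LincIN. With shRNA1, 5 members fell and 2 rose at an adjusted p under 0.05 in limma. That was 1.47% lower and 0.590% higher, against 1.37% and 0.497% of all named probe sets. With shRNA2, 4 members fell and 4 rose, 1.18% in each direction, against a background of 1.50% lower and 1.07% higher. These counts hold LINC00261 in both comparisons and LINC01088 with shRNA2, so no excess or lack of calls is read from them. At an unadjusted p under 0.05, 34 members (10.03%) and 39 members (11.5%) passed, against 12.1% and 18.6% of all named probe sets. In all, 11 members passed with either shRNA, of which 4 passed with both, 3 with shRNA1 alone and 4 with shRNA2 alone. Both comparisons share the vector arrays.

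**Figure D1:**
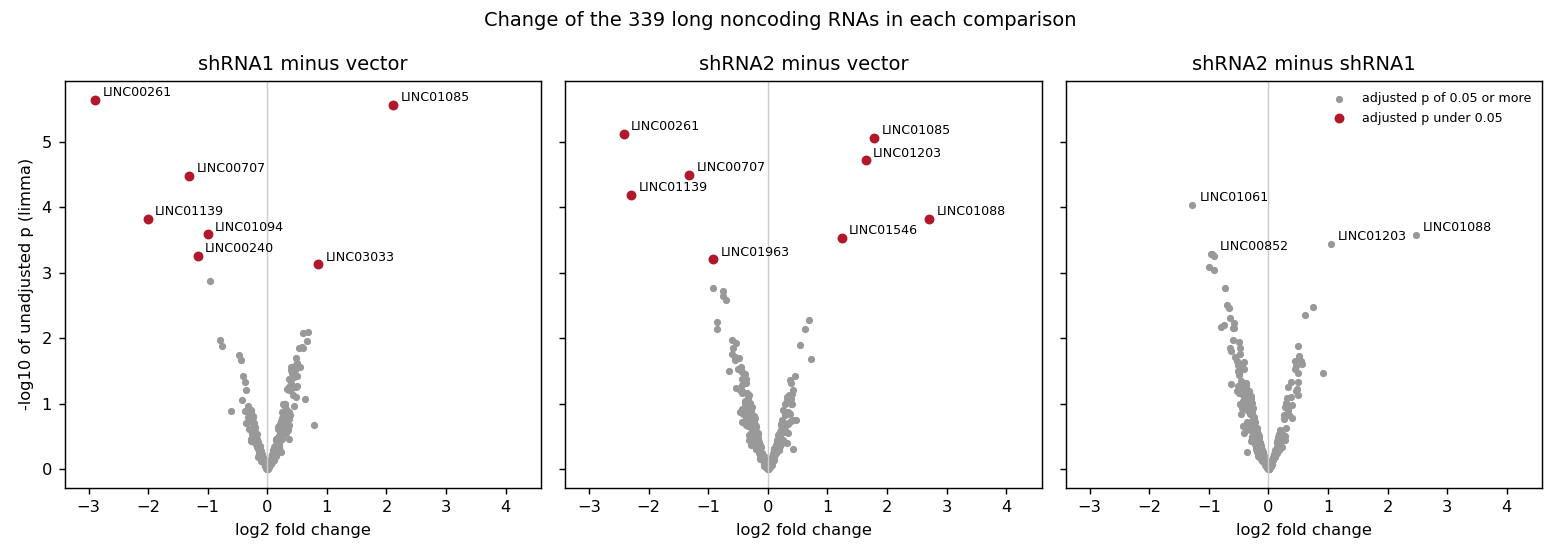
Each point is 1 of the 339 long noncoding RNAs, with its log2 fold change (x) and -log10 of its unadjusted limma p (y) in the 3 comparisons. Red points passed an adjusted p of 0.05 and are named, 7 with shRNA1, 8 with shRNA2 and 0 between the shRNAs, where the 4 lowest p are named.

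Most members moved little. The median log2 fold change of the members was 0.08 with shRNA1 and -0.04 with shRNA2, and that of all named probe sets 0.05 and -0.04. The median size of the change, without its sign, was 0.154 and 0.173 for the members against 0.167 and 0.207 for all. A change of over 0.5 was seen in 6.78% of the members with shRNA1 and 7.96% with shRNA2, compared with 10.1% and 15.9% of all named probe sets. The members were dimmer than the named probe sets as a whole and were not matched to them for signal. No smaller response of these RNAs is therefore read from these shares. The members that did not pass ranged from -0.96 to 0.78 with shRNA1 and from -0.92 to 0.73 with shRNA2.

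Of the 4 RNAs that passed with both shRNAs, 3 fell and 1 rose.

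LINC00261 had the largest fall of all members, with a mean signal over the limit only through its vector arrays. It lies beside FOXA2 and is known from endoderm differentiation, where it is also called DEANR1. Its log2 signal was 7.75 and 7.18 in the vector arrays, 4.49 and 4.68 with shRNA1 and 5.07 and 5.03 with shRNA2. All 4 shRNA arrays lay below both vector arrays, by more than the spread within any group. The differences were -2.88 for shRNA1 and -2.42 for shRNA2 on the log2 scale (SE 0.21, adjusted p of 0.00202 and 0.00457). Its RefSeq promoter window (GRCh38.p14 chr20:22578593-22578892, minus strand, 250 bases before to 50 after the start) is shown because it belongs to the RNA that fell most. The first capitals mark GTAAACA, letters of a forkhead motif, 237 bases before the start, and the second mark a TATA box (TATAAA) on the opposite strand, 74 bases before it.
LINC00261: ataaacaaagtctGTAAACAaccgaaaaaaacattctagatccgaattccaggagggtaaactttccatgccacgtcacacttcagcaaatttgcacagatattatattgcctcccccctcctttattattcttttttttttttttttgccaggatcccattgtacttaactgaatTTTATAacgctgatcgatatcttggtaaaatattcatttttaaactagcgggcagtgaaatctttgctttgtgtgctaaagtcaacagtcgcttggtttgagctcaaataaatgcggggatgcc

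LINC01139 fell by a similar size. It is also called LINK-A and has been studied in triple-negative breast cancer, where it was linked to HIF1A signalling. The signal was 8.55 and 7.76 in vector, 5.95 and 6.35 with shRNA1 and 5.79 and 5.95 with shRNA2. The shRNA arrays all lay below the vector arrays, although the vector arrays were the farthest apart of the 3 groups. The fold changes were -2.01 and -2.29 (SE 0.28, adjusted p of 0.0166 and 0.00977). LINC00707, an RNA of chromosome 10, had the tightest values: 7.68 and 7.56 in vector, 6.31 and 6.30 with shRNA1 and 6.31 and 6.29 with shRNA2. Its 4 shRNA arrays were alike, and the fold changes were -1.31 and -1.32 (SE 0.14, adjusted p of 0.00646 and 0.00709).

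LINC01085, of chromosome 4, was the member that rose with both. On the log2 scale it was 6.31 and 6.50 in vector, 8.50 and 8.53 with shRNA1 and 8.08 and 8.31 with shRNA2. Every shRNA array was above both vector arrays, with fold changes of 2.11 and 1.79 (SE 0.16, adjusted p of 0.00233 and 0.00457). Its promoter window (GRCh38.p14 chr4:14111718-14112017, plus strand) is shown for comparison with that of LINC00261. It held the letters CCAAT 3 times, once on the same strand and elsewhere as ATTGG on the opposite one, and these are in capitals.
LINC01085: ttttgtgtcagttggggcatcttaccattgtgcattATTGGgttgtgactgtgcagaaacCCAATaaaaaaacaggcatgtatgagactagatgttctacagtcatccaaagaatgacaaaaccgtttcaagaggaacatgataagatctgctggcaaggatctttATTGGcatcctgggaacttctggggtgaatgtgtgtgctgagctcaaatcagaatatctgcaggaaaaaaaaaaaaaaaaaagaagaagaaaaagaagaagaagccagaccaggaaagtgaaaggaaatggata

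Of these 4 RNAs, LINC00261, LINC00707 and LINC01085 kept their call with shRNA1 in each of the 6 fits that left out 1 array, with adjusted p between 0.0047 and 0.0457. LINC01139 lost its shRNA1 call without either shRNA1 array and without either shRNA2 array. A group left with 1 array adds nothing to the spread. For a comparison of the other groups, the 2 fits without its arrays are therefore the same fit, as is a fit of those 4 arrays alone. Counts of such fits in the text thus hold 1 fit more than once. The shRNA2 call of every member ended without shRNA2 replicate 1 and without shRNA2 replicate 2, where 0 members passed against 8 with all arrays (for LINC00261, adjusted p of 0.0842 and 0.0859).

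**Figure D2:**
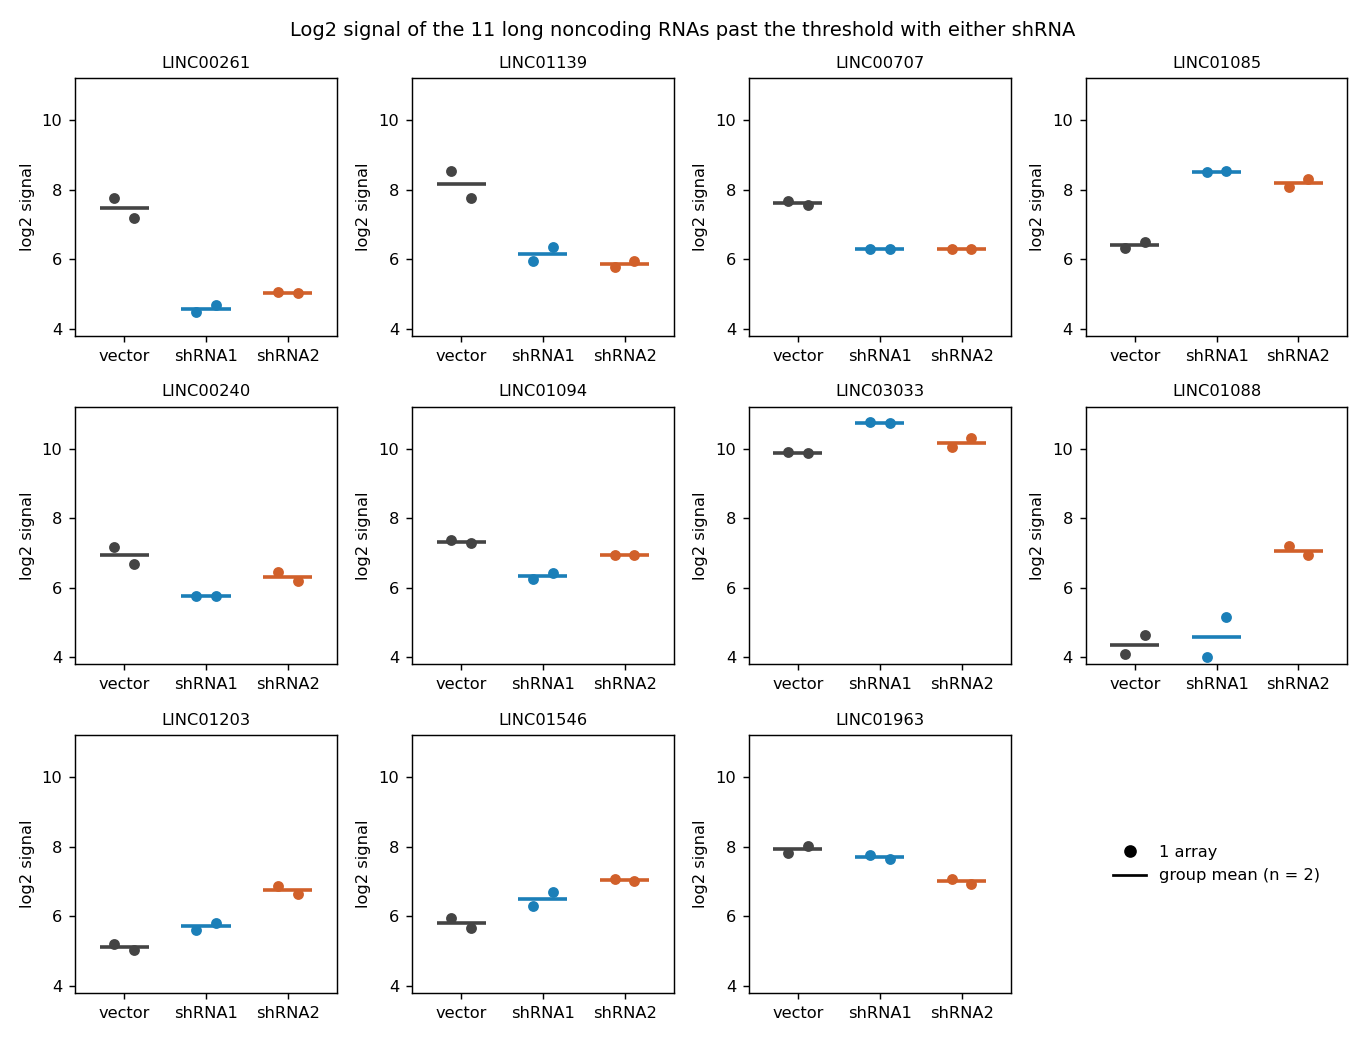
Log2 signal of the 11 members that passed with either shRNA, by group. Points are arrays and lines are means of 2 arrays. In the top row the 4 shRNA arrays all lie on 1 side of the vector arrays, below them for LINC00261, LINC01139 and LINC00707 and above them for LINC01085.

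Other members passed with shRNA1 alone. LINC00240, on chromosome 6, was 7.17 and 6.69 in vector, 5.77 and 5.76 with shRNA1 and 6.44 and 6.21 with shRNA2. It fell with shRNA1 (-1.17, SE 0.20, adjusted p = 0.0386), while the shRNA2 arrays lay between the other groups (-0.61, adjusted p = 0.162). LINC01094, on chromosome 4, was 7.38 and 7.28 in vector, 6.25 and 6.42 with shRNA1 and 6.94 and 6.95 with shRNA2. It fell with shRNA1 (-0.99, SE 0.15, adjusted p = 0.0238) and was also lower with shRNA2 by a size that did not pass (-0.39, adjusted p = 0.229). LINC03033, listed also as LncRNA-CAF, was bright: 9.89 and 9.89 in vector, 10.76 and 10.74 with shRNA1 and 10.06 and 10.30 with shRNA2. It rose with shRNA1 (0.86, SE 0.15, adjusted p = 0.043), and its shRNA2 arrays were again in between (0.29, adjusted p = 0.378).

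These calls were near the threshold. Leaving out 1 array ended those of LINC01094 and LINC03033 in all 6 fits (adjusted p of 0.0688 to 0.118, and 0.142 to 0.165) and that of LINC00240 in 5 (0.123 to 0.148), all but the fit without vector replicate 2 (0.0408). The direct differences between the shRNAs for the 3 RNAs, 0.56 for LINC00240, 0.61 for LINC01094 and -0.57 for LINC03033, did not pass (adjusted p of 0.25, 0.156 and 0.173), so they are not shown to differ between the shRNAs.

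Members that passed with shRNA2 alone included the largest rise. LINC01088, on chromosome 4, was 4.09 and 4.64 in vector, 4.02 and 5.18 with shRNA1, and 7.20 and 6.95 with shRNA2. The vector and shRNA1 arrays overlapped at the bottom of the scale and both shRNA2 arrays stood well above them. The fold change was 2.71 with shRNA2 (SE 0.37, adjusted p = 0.0163) and 0.23 with shRNA1 (adjusted p = 0.89). Between the shRNAs it was 2.47, which did not pass (adjusted p = 0.0701). Its mean over 6 arrays, 5.35, passed the signal limit only through the shRNA2 arrays. Its promoter window (GRCh38.p14 chr4:78971498-78971797, plus strand) is shown because the RNA had the largest rise, and it held none of the motifs searched.
LINC01088: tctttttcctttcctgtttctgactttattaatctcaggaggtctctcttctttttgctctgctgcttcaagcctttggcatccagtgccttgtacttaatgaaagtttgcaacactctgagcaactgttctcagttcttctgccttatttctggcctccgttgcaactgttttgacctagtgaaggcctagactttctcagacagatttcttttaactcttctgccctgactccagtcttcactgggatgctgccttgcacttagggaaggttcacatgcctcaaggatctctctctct

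A pair of X-linked RNAs rose with shRNA2. LINC01203 was 5.20 and 5.03 in vector, 5.61 and 5.82 with shRNA1 and 6.86 and 6.65 with shRNA2. Its arrays were ordered by group without overlap, with fold changes of 1.64 with shRNA2 (SE 0.17, adjusted p = 0.00554) and 0.60 with shRNA1 (adjusted p = 0.177). LINC01546, formerly annotated as CXorf28, had the same order: 5.94 and 5.66, then 6.30 and 6.69, then 7.08 and 7.01. Its fold changes were 1.24 with shRNA2 (SE 0.19, adjusted p = 0.0227) and 0.69 with shRNA1 (adjusted p = 0.175). The 7 other members on the X chromosome did not pass, at -0.46 to 0.47 with shRNA2. The promoter window of LINC01546 (GRCh38.p14 chrX:3271570-3271869, plus strand) is shown for its AP-1 letters (TGACTCA, in capitals, 179 bases before the start).
LINC01546: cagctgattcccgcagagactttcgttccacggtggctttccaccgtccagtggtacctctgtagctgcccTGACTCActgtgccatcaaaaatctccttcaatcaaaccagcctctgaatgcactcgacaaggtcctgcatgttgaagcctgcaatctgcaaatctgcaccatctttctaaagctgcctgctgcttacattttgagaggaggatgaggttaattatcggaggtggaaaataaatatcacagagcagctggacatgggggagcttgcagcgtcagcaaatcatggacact

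The fourth, LINC01963, fell. It was 7.82 and 8.03 in vector, 7.76 and 7.64 with shRNA1 and 7.09 and 6.93 with shRNA2. Its shRNA2 arrays were below all others (-0.91, SE 0.16, adjusted p = 0.0361), and its shRNA1 arrays lay just under the vector arrays (-0.22, adjusted p = 0.679). Beside the shRNA2 arrays, leaving out vector replicate 1 ended the calls of LINC01088, LINC01546 and LINC01963 (adjusted p of 0.0815, 0.0609 and 0.0828), and leaving out vector replicate 2 those of LINC01546 and LINC01963 (0.0966 and 0.122). LINC00862, a member once annotated as protein-coding, came closest of the rest. It was 7.20 and 7.17 in vector, 6.27 and 6.18 with shRNA1 and 6.50 and 6.03 with shRNA2, below vector in every shRNA array (-0.96 and -0.92), and did not pass (adjusted p of 0.061 and 0.0547).

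Of the genes below the signal limit, 1 passed with shRNA1 and 2 with shRNA2, and they are named here after their values were seen. LINC00632, the locus from which the circular RNA CDR1as is made, was 6.14 and 5.53 in vector, 4.50 and 4.68 with shRNA1 and 4.40 and 4.29 with shRNA2. It fell with both (-1.25 and -1.49, SE 0.22, adjusted p of 0.0424 and 0.0208), and its mean of 4.92 kept it out of the members. LINC02582 fell with shRNA2 (-1.24, adjusted p = 0.0133). Both shRNA2 calls ended without either shRNA2 array or without vector replicate 1, and the shRNA1 call of LINC00632 held only in the fit without vector replicate 2.

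Where long noncoding RNAs act on nearby genes, the neighbours are of interest. The nearest protein-coding genes on either side of the 11 called members, and those overlapping them, came to 23, of which 15 had a named probe set. FOXA2, the forkhead transcription factor next to LINC00261, was the one that passed. Its log2 signal was 8.78 and 9.28 in vector, 7.51 and 7.42 with shRNA1 and 7.31 and 7.20 with shRNA2. As for LINC00261, every shRNA array was below both vector arrays (-1.56 and -1.77, SE 0.20, adjusted p of 0.0116 and 0.00756). PAX1, on the other side of LINC00261, did not pass (-0.02 and 0.22). The FOXA2 call with shRNA1 ended in 4 of the fits that left out 1 array (up to adjusted p = 0.0741), without either shRNA1 or either shRNA2 array, and that with shRNA2 ended without either shRNA2 array. The other 14 measured neighbours ranged from -0.64 to 0.24 with shRNA1 and from -0.66 to 0.47 with shRNA2, and none of them passed. Among these, GK2, ATXN3L and ARSF were dim, with mean log2 signals of 4.38, 4.35 and 4.71, so a change in them may not have been seen.

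LINC01094 and LINC01088 lie near each other on chromosome 4. In the RefSeq gene order the measured genes there were FRAS1, ANXA3, LINC01094, BMP2K, PAQR3, LINC01088, GK2 and ANTXR2. FRAS1, which encodes a matrix protein of epithelial basement membranes and was included after its values were seen, fell with both shRNAs (-1.58 and -1.25, adjusted p of 0.0113 and 0.0267). Its log2 signal was 8.51 and 8.09 in vector, 6.85 and 6.59 with shRNA1 and 7.16 and 6.95 with shRNA2. ANXA3, an annexin between FRAS1 and LINC01094, was -0.64 with shRNA1 and 0.28 with shRNA2, and neither passed (adjusted p of 0.145 and 0.439). PAQR3, beside LINC01088, was -0.51 and -0.34, GK2 on its other side was -0.31 and -0.52, and neither gene passed. The rise of LINC01088 with shRNA2 was thus not seen in its measured neighbours, of which GK2 was dim (mean log2 signal of 4.38). NAA11, a protein-coding gene that overlaps LINC01088 in the RefSeq gene table, had no named probe set. The FRAS1 calls ended without vector replicate 1 (adjusted p of 0.0548 and 0.101) and without either shRNA2 array, and the shRNA1 call also without shRNA1 replicate 2 (0.0725).

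**Figure D3:**
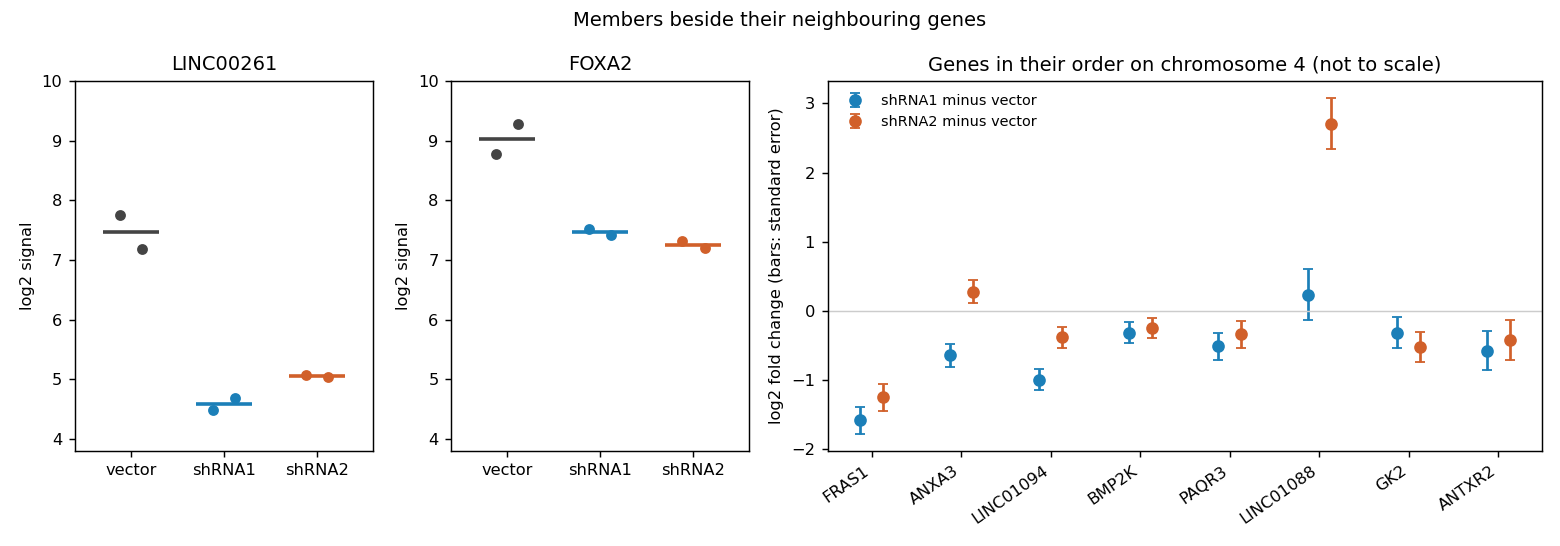
Left and middle, log2 signal of LINC00261 and of FOXA2 by group, with arrays as points and means of 2 arrays as lines; both genes are lower in all 4 shRNA arrays. Right, log2 fold change against vector with its standard error for genes in their order on chromosome 4, where LINC01088 stands at 2.71 with shRNA2 between PAQR3 and GK2, which are below 0.

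The shRNAs were also compared with each other. No member passed the adjusted threshold, against 0.00621% of all named probe sets in either direction (1 of 16098). With 1 probe set tested per gene, 1 member passed, LINC01061 (adjusted p = 0.0494). With the replicate number as a block in the fit, 2.36% of the members passed, against 2.30% of all, though no label ties a number to an experiment. Without a block, 2 members at an unadjusted p under 0.001 were higher with shRNA2 than with shRNA1 (0.590%, against 0.509% of all). At the same limit 6 were lower (1.77%, against 0.516%), and 52 members (15.3%) had an unadjusted p under 0.05, against 15.6% of all. The 2 that were higher were LINC01088 and LINC01203 (1.05, SE 0.17, adjusted p = 0.0754). The median difference of the members was -0.13, against -0.08 over all named probe sets.

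The 6 that were lower were among the brighter members, LINC01061, LINC01000, LINC00999, LINC01347, LINC03009 and LINC00852. Whether probe sets of these different symbols read copies of 1 sequence was not tested, so the 6 may not be separate observations. LINC01061 had the lowest p. Its log2 signal was 11.14 and 11.35 in vector, 11.75 and 11.79 with shRNA1 and 10.61 and 10.38 with shRNA2. The shRNA1 arrays were thus above vector and the shRNA2 arrays below it, and the difference between the shRNAs was -1.28 (SE 0.16, adjusted p = 0.0588). LINC01000 was 11.44 and 11.60 in vector, 11.71 and 11.76 with shRNA1 and 10.92 and 10.71 with shRNA2 (difference -0.92, adjusted p = 0.0797). LINC00999 was 11.01 and 10.87, then 11.38 and 11.46, then 10.59 and 10.34 in the same order of groups (-0.95, adjusted p = 0.0795). LINC01347 was 11.79 and 11.55, then 12.21 and 12.06, then 11.33 and 11.12 (-0.91, adjusted p = 0.0911). In all 4 the vector arrays lay between those of the shRNAs without overlap. The dimmer pair had the same order: LINC03009 had group means of 9.14, 9.597 and 8.60 for vector, shRNA1 and shRNA2, and LINC00852 of 7.78, 8.19 and 7.25. None of the 6 passed against vector with either shRNA.

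This order of groups was counted over all members, and members that may share sequence were each counted. Both shRNA1 arrays above and both shRNA2 arrays below the 2 vector arrays was seen in 22 members (6.49%), against 3.62% of all named probe sets, and the reverse in 2 members, LINC01119 and LINC02396 (0.590%, against 1.12%). The arrays differ in overall level, so the counts were repeated with each array centred on its median and with quantile normalization, alternatives chosen after seeing the data. They gave 19 members (5.60%, against 2.14% of all) and 18 members (5.31%, against 2.47%), and 18 of the 22 were in each. The reverse order then held for 4 members (1.18%) in either case, against 2.01% and 1.71% of all. The differences of the other 16 of the 22 between the shRNAs were smaller, from -0.79 to -0.29, and did not pass.

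**Figure D4:**
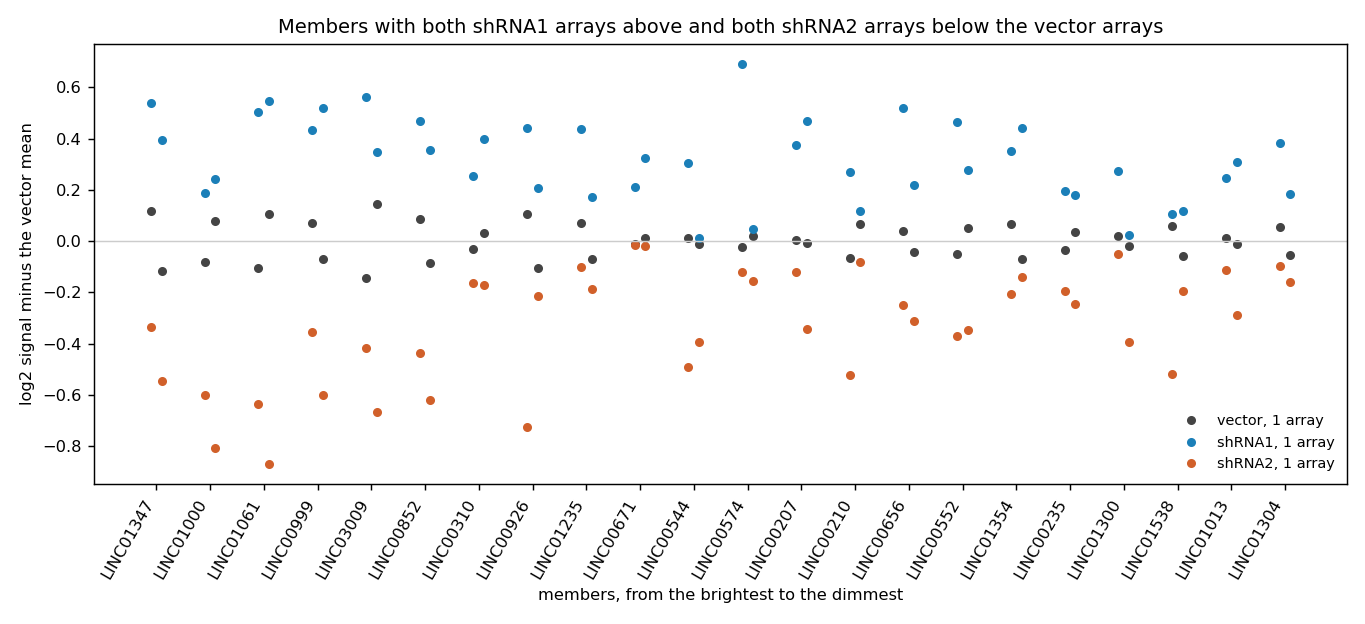
Log2 signal of each array minus the vector mean of that gene, for the 22 members whose shRNA1 arrays lie above and shRNA2 arrays below both vector arrays, from the brightest (LINC01347) to the dimmest (LINC01304). The 6 genes at the left have the widest gaps between the shRNAs, -0.91 to -1.28.

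Several probe sets measured some of these genes, and they did not always move together. Of the 339 members, 291 had 1 probe set and 48 had several, with 82 probe sets beside the brightest; 0 of these passed with shRNA1 and 3 with shRNA2. For LINC01061, all 7 probe sets were lower with shRNA2 than with shRNA1 (-1.28 to -0.45), for LINC01000 all 3 (-0.92 to -0.38), for LINC00999 all 4 (-0.95 to -0.16) and for LINC01347 5 of 6 (-0.91 to 0.14). Probe sets that carry 1 symbol may read near-identical copies of a sequence, so these are not separate observations of a gene, and the copies cannot be told apart. The same may hold between probe sets of different symbols, such as these 4 genes, which was not tested. LINC00999, LINC01347 and LINC01000 are genes of chromosomes 10, 1 and 7. The numbers of their brightest probe sets lie among those of lncRNA genes on chromosomes 4, 7 and 5. Where these probe sets map was not tested. Of the 5 probe sets of LINC01088, the brightest gave 2.71 with shRNA2, another of mean signal 4.82 gave 2.02, and the rest gave 0.41, 0.03 and 0.07. The second probe set of LINC01094 was -0.47 with shRNA1 and 0.19 with shRNA2, and did not pass. The 3 of MALAT1 gave -0.31, 0.31 and 0.18 with shRNA2.

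**Figure D5:**
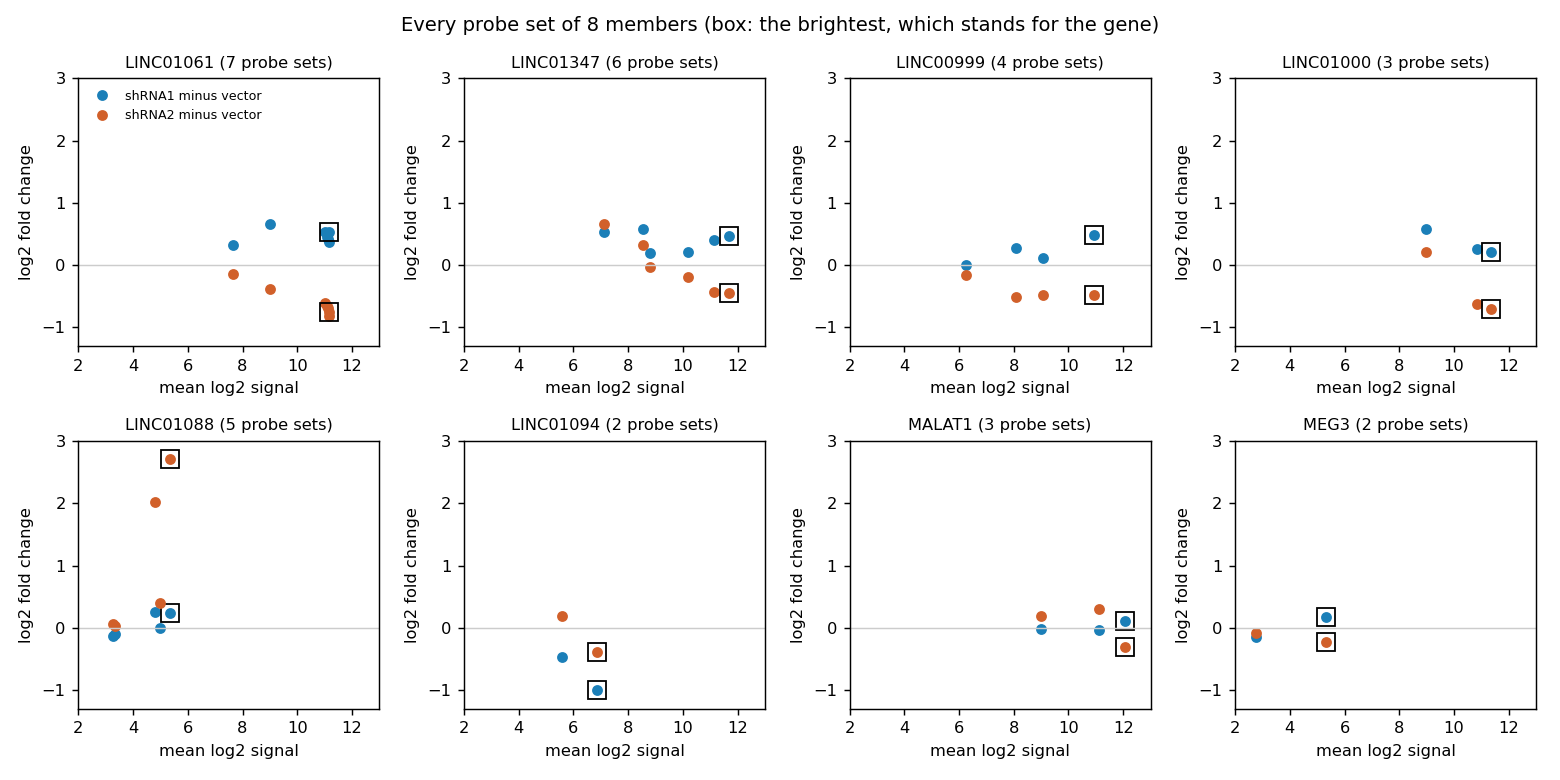
Log2 fold change against vector (y) and mean log2 signal (x) of every probe set of 8 members, with shRNA1 in blue and shRNA2 in orange; a box marks the brightest probe set. For LINC01061 the 7 probe sets lie above 0 with shRNA1 and below 0 with shRNA2, and for LINC01088 2 of 5 lie at 2 or more with shRNA2.

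The promoters of the members had a lower median GC content than those of protein-coding genes and of all genes together. Other noncoding genes were not set apart, so no contrast here is shown to be particular to the members. RefSeq windows of 300 bases (GRCh38.p14) matched 254 members, with 274 windows, and 6 of the 11 called members had one. The median GC content was 52.7% in the members, 58.7% over all 35116 windows and 62.3% over the 22198 of protein-coding genes. GGGCGG, the GC box, was found on either strand in 31.8% of member windows, 45.0% of all and 56.3% of protein-coding ones. TATAAA, the TATA box, was in 16.1%, 11.5% and 9.47%. TGANTCA, the AP-1 motif, was in 13.1%, 7.71% and 6.15%, and the windows of LINC01094 and LINC01546 held it. CCAAT was about as common in each (33.2%, 34.6% and 34.7%), as was the E-box CACGTG (7.30%, 7.26% and 8.34%). The CRE, TGACGTCA, was in 2.55%, 1.85% and 2.26%, and the ATF4 letters TGATGNAA in 5.47%, 3.62% and 2.69%. GTAAACA, searched after the LINC00261 window was read, was in 4.38%, 3.42% and 2.85%. No test was made of these shares, and a match of letters is not a site.

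Long noncoding RNAs with other names were set beside the members. Of 72 listed for having been studied, 42 had a named probe set and 38 of these a mean signal of at least 5. With shRNA1, 1 fell and 0 rose, and with shRNA2, 3 fell and 0 rose, with median fold changes of 0.09 and 0.02 over the 42. That was 2.38% and 7.14% lower, beside 1.37% and 1.50% of all named probe sets. For the rises it was 0% with either shRNA, beside 0.497% and 1.07% of all. With so few genes, no one-sided fall is read from these counts. MIR99AHG, the host transcript of miR-99a and let-7c, fell with both. Its log2 signal was 6.205 and 6.01 in vector, 4.50 and 4.22 with shRNA1 and 4.39 and 4.70 with shRNA2 (-1.75 and -1.57, SE 0.18, adjusted p of 0.00604 and 0.00904). The order of groups for MIR99AHG resembled that of LINC00261, with no overlap of shRNA and vector arrays. MIR22HG, the host of miR-22, fell with shRNA2 (-0.96, adjusted p = 0.0302), from 8.07 and 8.30 in vector to 7.20 and 7.26. HCG18, an RNA of the HLA region, fell with shRNA2 as well (-0.89, adjusted p = 0.0392), from 10.003 and 10.285 to 9.27 and 9.25. The shRNA2 calls of the 3 RNAs ended without either shRNA2 array and without vector replicate 1, those of MIR22HG and HCG18 also without vector replicate 2, and that of HCG18 in all 6 fits. The largest difference among the 42 was that of HCP5, at 1.90 with shRNA1, which did not pass (adjusted p = 0.184) and had arrays far apart, 8.27 and 7.02 in vector and 10.3 and 8.79 with shRNA1.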

How the data were processed

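Values were analysed for 6 arrays, 2 per group, grouped as the labels give them. The deposited values are on a log2 scale: the authors ran the Affymetrix Expression Console with RMA, which corrects the background, normalizes probes by quantiles across arrays and summarises them per probe set. The software version and the genome build are not given in the sources used here. Precision is limited by how few arrays there are. Of 53617 probe sets, the annotation pairs 16098 with exactly 1 gene symbol (14884 genes), and these were tested.

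The 3 group means were fitted together in limma 3.58.1 (R 4.3.3; lmFit and eBayes, 3 residual and 4.16 prior degrees of freedom), and two-sided p-values of these 16098 probe sets received the Benjamini-Hochberg adjustment, with 0.05 as threshold. The fit was also run on simulated data in which the noise of each array was drawn independently. That run does not cover replicate differences shared between groups. The study's methods name BRB-ArrayTools without the test.

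The members and lists were chosen with earlier results of these data known. The text names members past the threshold, MALAT1 and MEG3, the 5 brightest, the 2 genes on each side of the limit, called lncRNAs of the list and neighbours of called members. LINC00862, LINC00632, LINC02582, FRAS1, KDR, HCP5, the order of groups and the genes described with it, and the forkhead letters were chosen after their values or sequences were seen. Motifs were searched on both strands. Alternatives are given in the closing section. Python 3.11.15 with pandas 2.3.3 made the other tables.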

Additional observations from a re-analysis of the deposited data

How the results depend on the processing

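Counts of members past the threshold were 7 with shRNA1, 8 with shRNA2 and 0 between the shRNAs. With shRNA1 a pairwise fit of 4 arrays gave 3, and adjusting over all probe sets gave 3. The methods' t-test, which they name for in vitro data in general and not for the arrays, gave 0 after Benjamini-Hochberg and 1 at an unadjusted p under 0.001. With shRNA2 the methods' t-test gave 0 both ways, all probe sets gave 5 and a signal limit of 6 gave 5. Between the shRNAs, an unadjusted p under 0.001 gave 8 and testing 1 probe set per gene gave 1, LINC01061 (adjusted p = 0.0494). Leaving out 1 array gave 3 to 5 members with shRNA1, 0 to 8 with shRNA2 and 0 between the shRNAs; for the other studied lncRNAs it gave 1 with shRNA1 and 0 to 2 with shRNA2. Centring arrays on their medians left 7 members with shRNA1 but turned the split to 1 higher and 6 lower, from 2 and 5: LINC03033 no longer passed (adjusted p = 0.0561) and LINC00862 did (0.0414). It shifted the median of all named probe sets by 0.10 between the shRNAs. The reverse order of the groups held for 4 members with centring and 4 with quantile normalization, in place of 2. An intensity trend, a filter on dim probe sets, a signal limit of 4 and counting every probe set of a member left each count within 1.5 times the one reported. No fold change of a called gene changed sign in any setting.

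The replicate numbers are shared by the groups, but no label ties a number to an experiment. Differences between replicates 1 and 2 correlated across probe sets at 0.63 for vector with shRNA1, 0.14 for vector with shRNA2 and 0.15 for the shRNAs. With the replicate number as a block, 8 members passed with shRNA1 (2.36%, against 3.32% of all named probe sets), 16 with shRNA2 (4.72%, against 7.33%) and 8 between the shRNAs (2.36%, against 2.30%), and of the other studied lncRNAs 3, 5 and 1. The cause of these differences was not tested. With 2 arrays per group and mostly dim probe sets, small changes were not detectable.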
